A study of Mus musculus with 24 samples.

Results

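DNA methylation in mouse cells is written by the DNA methyltransferases and removed through oxidation by the TET dioxygenases. This account follows 8 genes of that machinery, Dnmt1, Dnmt3a, Dnmt3b, Dnmt3l, Uhrf1, Tet1, Tet2 and Tet3, which were taken by exact gene symbol from the 35742 genes measured. All 8 were found, and all 8 passed the filter on low values (a mean normalized count of at least 1) in every comparison. The RNA came from V6.5, a line of mouse embryonic stem (ES) cells, with a degron on BRD2. Such a tag lets the plant hormone auxin send the tagged protein to the proteasome. BRD2 is a bromodomain protein of the BET family, which binds acetylated histones at active promoters. There were 8 groups of 3 libraries: undifferentiated cells (mES) and embryoid bodies (EBs) at day 2, day 3 and day 4 (EBd2, EBd3, EBd4), each as a Dox group and an IAA group. All 24 samples, the controls included, received doxycycline at 1 µg/ml for 18 h. Auxin, as indole-3-acetic acid at 500 µM for 24 h, was added in the IAA groups and left out in the Dox groups. The mES cells grew in 2i medium, which holds an inhibitor of GSK3 and one of MEK, with serum and LIF, and the EBs formed without LIF. Neither the timing of the auxin within EB culture nor the clonal origin of the line is given in the labels. They also leave unstated if replicates were grown independently, so p-values cover only the spread among these samples, which may be technical.

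DNMT3A and DNMT3B place methyl groups on unmethylated CpG dinucleotides (de novo methylation), and DNMT3L has no catalytic activity of its own but stimulates both. DNMT1 copies the methylation pattern to the daughter strand after replication, with UHRF1 as the factor that recognises hemimethylated CpG and brings DNMT1 to it. The TET enzymes oxidise 5-methylcytosine, which leads to its loss through replication or base excision repair. ES cells in 2i medium are known for low DNA methylation and low de novo methyltransferase levels, and their exit from the naive state is accompanied by a wave of de novo methylation.

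The sequences just upstream of annotated starts are shown for the 3 de novo genes and for Tet1 and Tet2, because the de novo genes fell together with IAA in mES while Tet1 and Tet2 moved in opposite directions there. They are RefSeq promoter windows of build GRCm38.p6, the 250 bases before a start, 5′ to 3′ on the gene's strand, with each CG dinucleotide in capitals. All 8 genes matched the RefSeq table, with 15 windows in total.
Dnmt3a, window 3, chr12:3891494-3891743, plus strand: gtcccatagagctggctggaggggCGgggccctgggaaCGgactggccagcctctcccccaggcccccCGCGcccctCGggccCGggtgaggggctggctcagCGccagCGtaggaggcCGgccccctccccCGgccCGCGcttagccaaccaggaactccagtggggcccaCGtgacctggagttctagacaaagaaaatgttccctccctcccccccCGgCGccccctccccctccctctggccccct
Dnmt3b, chr2:153649199-153649448, plus strand: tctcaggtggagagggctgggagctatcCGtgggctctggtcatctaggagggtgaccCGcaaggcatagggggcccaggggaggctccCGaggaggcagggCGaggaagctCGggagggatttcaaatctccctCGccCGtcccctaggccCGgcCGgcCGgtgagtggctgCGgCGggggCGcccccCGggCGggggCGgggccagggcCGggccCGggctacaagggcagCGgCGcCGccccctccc
Dnmt3l, window 1, chr10:78042037-78042286, plus strand: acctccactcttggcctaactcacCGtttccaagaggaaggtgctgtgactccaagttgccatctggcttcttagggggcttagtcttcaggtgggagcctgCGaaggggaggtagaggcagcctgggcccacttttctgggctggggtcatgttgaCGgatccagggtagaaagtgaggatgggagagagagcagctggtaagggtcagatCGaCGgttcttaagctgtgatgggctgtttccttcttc
Tet1, chr10:62887325-62887574, minus strand: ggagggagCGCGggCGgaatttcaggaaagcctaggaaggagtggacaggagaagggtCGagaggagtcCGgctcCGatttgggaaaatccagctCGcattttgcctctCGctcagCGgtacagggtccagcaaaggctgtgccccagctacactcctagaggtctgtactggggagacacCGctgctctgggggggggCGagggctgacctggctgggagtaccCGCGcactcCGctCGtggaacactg
Tet2, chr3:133544391-133544640, minus strand: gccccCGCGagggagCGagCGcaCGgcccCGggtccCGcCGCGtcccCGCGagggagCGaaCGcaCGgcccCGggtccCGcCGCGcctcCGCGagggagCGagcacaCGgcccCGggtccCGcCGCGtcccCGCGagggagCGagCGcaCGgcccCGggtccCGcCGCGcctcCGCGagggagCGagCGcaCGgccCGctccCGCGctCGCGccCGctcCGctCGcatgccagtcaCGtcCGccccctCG
The Dnmt3a window shown lies before the innermost start, which yields the shorter Dnmt3a2 form known as the main form of ES cells. It holds 15 CG, against 38 and 40 in the windows before the outer starts of Dnmt3a. Dnmt3b holds 21 CG and the first window of Dnmt3l 5, with 4 and 3 in its other windows. Tet1 holds 15 CG. Tet2 holds 51, more than 99.9% of the 32851 promoter windows of this length, whose median is 6, and its window matches itself at 77.9% of positions when shifted by 42 bases. The letters GGGCGG (the GC box, searched on both strands, containing a CG) occur in 11 of the 15 windows and in 32.7% of all windows. The letters CACGTG (the E-box, its own reverse complement, containing a CG) occur in 2 of the 15, the Dnmt3a window shown and a Dnmt3l window, and in 6.02% of all windows. These matches describe the letters of the windows alone, since neither binding nor methylation was measured in the files analysed here.

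Recovered whole reads ranged from 7819522 to 15732767 per library. The pluripotency genes Pou5f1, Nanog and Esrrb had mean normalized counts of 9707, 9598 and 8556 in mES Dox, and Fgf5, a gene of the formative epiblast, was listed at 0 in all 6 mES libraries. In EBd2 Dox, Pou5f1 was at 9083, Nanog at 526, Esrrb at 300.3 and Fgf5 at 403. Brd2 RNA was higher with IAA at every stage, by log2 0.87, 0.65, 0.38 and 0.48 in stage order. Its mES means were 4497 (Dox) and 8243 (IAA), and its EBd4 means 3015 and 4215. The degron acts on the protein, so the RNA does not check its depletion. Libraries of a group differed by more than sampling noise in part (chi-square per degree of freedom 1.11 to 4.9). Both the third EBd2 Dox library (EBd2 Dox 3; 4.09 and 3.44 against the other two) and the first EBd4 IAA library (EBd4 IAA 1; 3.4 and 4.9) differed from their groups, whose other pairs were at 1.27 and 1.92. In bulk RNA, fewer cells of a type and less RNA per cell cannot be told apart.

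The 8 genes are protein-coding and lie on 7 chromosomes of mm10 by GENCODE M21. Dnmt1 (ENSMUSG00000004099) spans chr9:20907209-20959888 on the minus strand and Dnmt3a (ENSMUSG00000020661) chr12:3806007-3914443 on the plus strand. Dnmt3b (ENSMUSG00000027478) spans chr2:153649450-153687730 and Dnmt3l (ENSMUSG00000000730) chr10:78041947-78063622, both on the plus strand. Uhrf1 (ENSMUSG00000001228) spans chr17:56303321-56323486 on the plus strand. Tet1 (ENSMUSG00000047146) spans chr10:62804570-62908996, Tet2 (ENSMUSG00000040943) chr3:133463679-133545139 and Tet3 (ENSMUSG00000034832) chr6:83362373-83459084, all on the minus strand. Dnmt3l shares 67 exonic bases with Aire on the other strand, whose normalized count was 19.1 to 198, so reads from the shared bases are uncertain without a known strand setting. Dnmt3a shares 133 exonic bases with Dnmt3aos (0 to 3.36 normalized counts) and Tet2 shares 43 with Gm42567 (0 to 0.948).

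Per kilobase of exon, the maintenance pair led in undifferentiated cells and Dnmt3b led in EBs. In mES Dox the order of the mean normalized counts per kb was Uhrf1 1629.6, Dnmt1 756, Tet1 389, Dnmt3l 259, Dnmt3b 205, Tet2 144, Dnmt3a 56.4 and Tet3 5.74, and no neighbours in that order overlapped between libraries. In mES IAA the order began with Uhrf1 at 1938 and Dnmt1 at 957, and Tet2 (203) stood above Dnmt3l (114) and Dnmt3b (62.7). In EBd2 Dox the order was Dnmt3b 4116, Uhrf1 1179, Dnmt3l 1093, Dnmt1 588, Dnmt3a 583, Tet1 269.5, Tet3 22.8 and Tet2 20.4. 2 neighbour pairs were not separated, Uhrf1 with Dnmt3l and Dnmt1 with Dnmt3a. In EBd3 Dox the order was Dnmt3b 5143, Uhrf1 956, Dnmt3a 473, Dnmt1 444, Dnmt3l 280, Tet1 189, Tet3 23.4 and Tet2 15.5, with Dnmt3a and Dnmt1 overlapping. In EBd4 Dox it was Dnmt3b 3186, Uhrf1 909, Dnmt1 487, Dnmt3a 217, Tet1 139, Dnmt3l 82.2, Tet2 22.9 and Tet3 21.8, with the last pair overlapping. In the 3 EB groups with IAA, Dnmt3b again led and Uhrf1 came next, and Tet1 (127) and Dnmt3l (113) in EBd4 were the one pair of overlapping neighbours. Dnmt3b stood above 85% of protein-coding genes per kb in mES Dox and above 99.7%, 99.8% and 99.5% in EBd2, EBd3 and EBd4 Dox. Ranks below the top depend on the length used. With the longest transcript of each gene, mES Dox had Dnmt3l (424) above Tet1 (419) and Tet2 (264) above Dnmt3b (242). EBd2 Dox then had Dnmt3l (1793) above Uhrf1 (1399.9), Dnmt3a (1002) above Dnmt1 (739) and Tet2 (37.5) above Tet3 (34.9). EBd2 IAA also had Dnmt3l (1656) above Uhrf1 (1583).

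**Figure D1:**
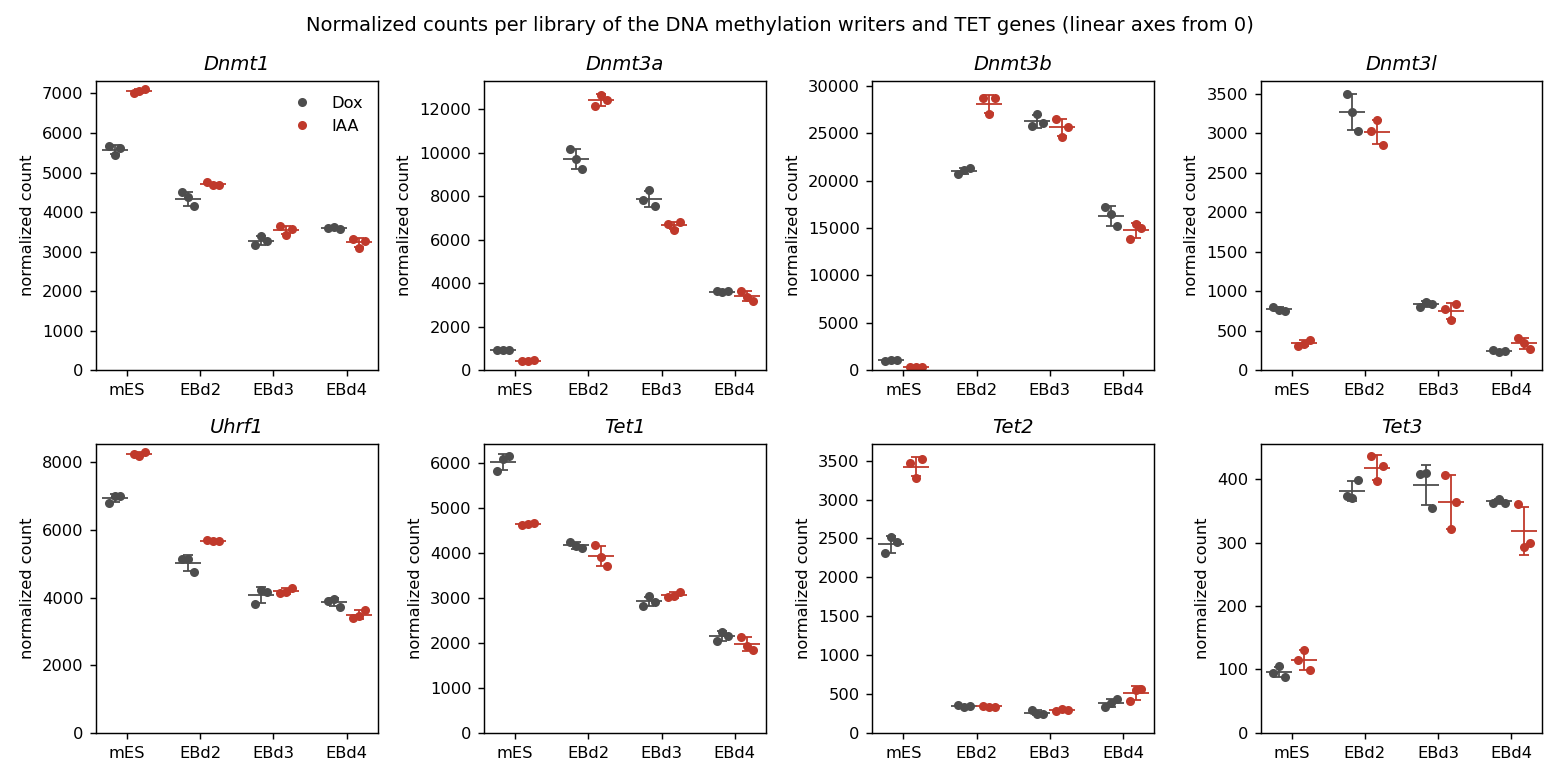
Normalized counts of the 8 genes in each library (points), with the group mean and SD (bars), by stage and treatment, on linear axes from 0 that differ between panels. Dnmt3a, Dnmt3b and Dnmt3l are low in mES and high in EBd2, while Tet2 is high in mES (2308 to 3518) and at 571 or less in every EB library.

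All 8 genes changed at the first step of the control course. By limma on log2(normalized count + 1), with Benjamini-Hochberg adjustment over all genes at 0.05, 4 rose and 4 fell between mES and EBd2 in the Dox libraries, where 64.1% of all genes passed (35.0% higher, 29.1% lower). Between EBd2 and EBd3, 1 rose and 6 fell, beside 46.4% of all genes (22.0% higher, 24.4% lower). Between EBd3 and EBd4, 2 rose and 4 fell, beside 33.7% of all genes (16.1% higher, 17.6% lower). From mES to EBd4, 3 rose and 5 fell, beside 60.8% of all genes (30.6% higher, 30.2% lower). Dox libraries did not overlap for 8, 7, 6 and 8 of the 8 genes in these 4 comparisons, and for 69.2%, 54.4%, 42.9% and 64.9% of all genes.

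With IAA against Dox, 7 of the 8 genes passed in mES, 3 higher and 4 lower, where 37.5% of all genes did (17.3% higher, 20.1% lower). In EBd2, 4 were higher and 0 lower, beside 30.1% of all genes (13.4% higher, 16.7% lower). In EBd3, 0 were higher and 1 lower, beside 10.5% of all genes (4.22% higher, 6.32% lower). In EBd4, 2 were higher and 2 lower, beside 10.3% of all genes (4.69% higher, 5.57% lower). The treatments did not overlap for 7 of the 8 genes in mES (45.8% of all genes), 4 in EBd2 (41.9%), 2 in EBd3 (26.9%) and 4 in EBd4 (28.5%). The EBd4 calls were the least stable, since 0 of the 8 genes passed without Dox 1, without Dox 2 or without IAA 2. Without EBd2 Dox 3, the log2 IAA effect in EBd2 was 0.32 for Dnmt3a, 0.43 for Dnmt3b and 0.14 for Uhrf1, all still past the threshold, and all 8 genes still passed from mES to EBd2 in Dox. Without EBd4 IAA 1, 3 of the 8 genes passed in EBd4, Dnmt1 (log2 -0.17), Tet2 (0.55) and Tet3 (-0.30). In the authors' deposited table, Dnmt3a, Dnmt3b and Dnmt3l carry the call "down" in mES and all other entries of the 8 genes are called unchanged. Entries called unchanged can still hold a small adjusted p of the deposited DESeq2 test. In mES it was 3.44e-21 for Dnmt1, 1.4e-14 for Tet1 and 5.08e-09 for Tet2. In EBd2 it was 1.58e-14 for Dnmt3a and 3.18e-19 for Dnmt3b. In EBd4 it was 0.00109 for Dnmt1, 0.000547 for Dnmt3l, 0.00432 for Uhrf1 and 0.000833 for Tet2. Dnmt1 in EBd3 (0.0288) and Dnmt3b in EBd4 (0.0147) were below 0.05 there but did not pass by limma.

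**Figure D2:**
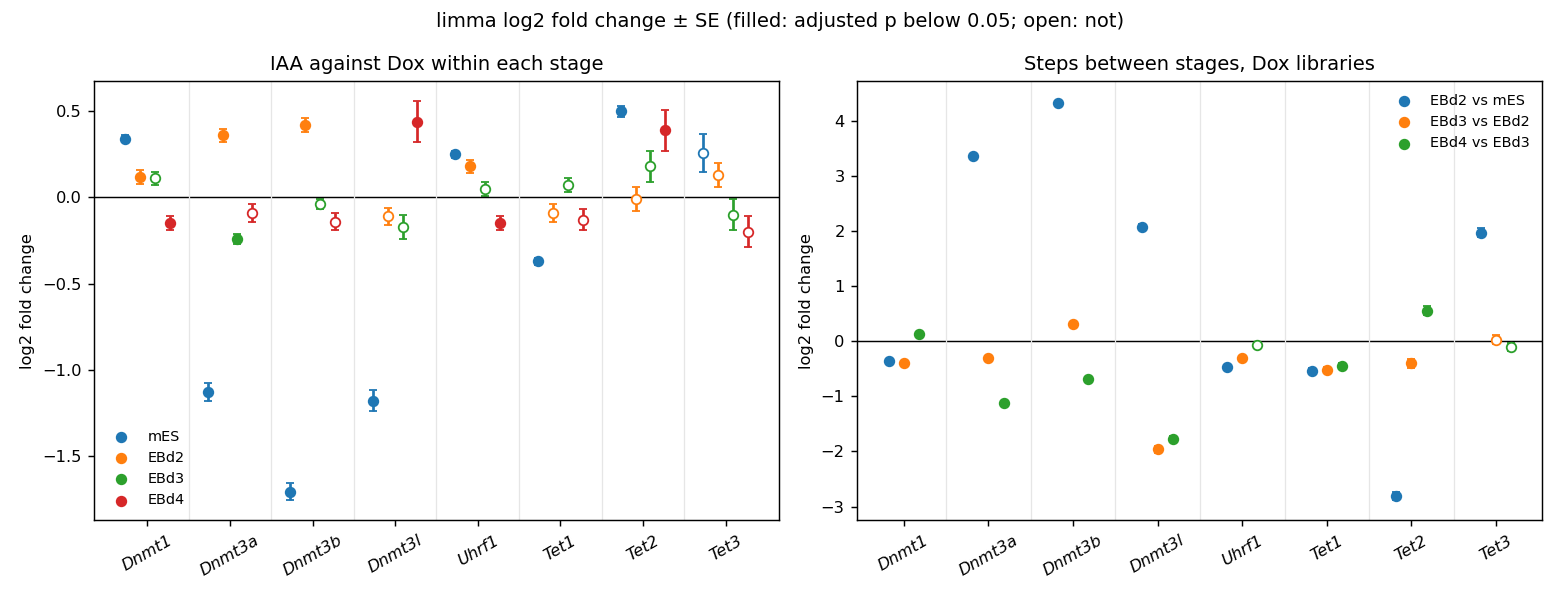
Log2 fold changes with SE from limma for the 8 genes, for IAA against Dox within each stage (left) and for the steps between stages in Dox libraries (right), filled where the adjusted p is below 0.05. The mES points of Dnmt3a, Dnmt3b and Dnmt3l lie between -1.71 and -1.13 on the left, and their EBd2 points lie between 2.08 and 4.33 on the right.

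Dnmt3b, the de novo enzyme that dominates in the early epiblast, had the largest rise of the 8 genes. Its normalized counts in mES Dox were 999, 1036 and 1106, and in EBd2 Dox 20682, 21073 and 21290.2. All EBd2 libraries stood far above all mES libraries, a 20.1-fold difference (log2 4.33 ± 0.04 (SE), adjusted p = 4.8e-29 by limma). EBd3 Dox was at 25709.7, 26996 and 26080.2, higher than EBd2 (log2 0.32 ± 0.04, adjusted p = 3.43e-07). EBd4 Dox was at 17178, 16453 and 15175, lower than EBd3 (log2 -0.69 ± 0.04, adjusted p = 3.22e-12).

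With IAA, Dnmt3b moved in opposite directions in mES and in EBd2. The mES IAA libraries were at 302, 339 and 319.9, below every Dox library, a 3.26-fold difference (log2 -1.71 ± 0.05, adjusted p = 4.85e-26). The EBd2 IAA libraries were at 28666, 27022 and 28666, above every Dox library (1.34-fold, log2 0.42 ± 0.04, adjusted p = 4.29e-08). In EBd3 the IAA libraries, 26504, 24637 and 25693, overlapped the Dox libraries (log2 -0.04 ± 0.03, adjusted p = 0.466). In EBd4 the IAA libraries, 13881, 15415 and 14980.3, also overlapped them through IAA 2, and the difference did not pass (log2 -0.14 ± 0.05, adjusted p = 0.0775). It passed in a joint fit of all 24 libraries (adjusted p = 0.0306) and without Dox 3 (log2 -0.19, adjusted p = 0.0265).

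Dnmt3a, the other de novo enzyme, rose less and peaked at EBd2. Its normalized counts were 935, 929 and 952 in mES Dox and 10162, 9701 and 9238 in EBd2 Dox, a 10.3-fold rise (log2 3.37 ± 0.04, adjusted p = 6.4e-27 by limma). They were 7805, 8273 and 7548 in EBd3 Dox and 3623, 3576 and 3657 in EBd4 Dox. Each of these steps was a fall with no overlap of libraries (log2 -0.30 ± 0.04, adjusted p = 6.25e-07, and log2 -1.12 ± 0.04, adjusted p = 7.77e-16).

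With IAA, Dnmt3a fell in mES, rose in EBd2 and fell in EBd3. The mES IAA libraries were at 403, 431 and 454, all below the Dox libraries (2.19-fold, log2 -1.13 ± 0.05, adjusted p = 3.58e-21). The EBd2 IAA libraries were at 12148, 12669 and 12445, all above them (1.28-fold, log2 0.36 ± 0.04, adjusted p = 1.39e-06). The EBd3 IAA libraries were at 6708, 6468 and 6806, all below them (1.18-fold, log2 -0.24 ± 0.03, adjusted p = 2.72e-05). This was the single call among the 8 genes in EBd3. The EBd4 IAA libraries, 3647, 3383 and 3177, overlapped the Dox libraries through IAA 1 (log2 -0.09 ± 0.05, adjusted p = 0.285).

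Dnmt3l, the catalytically inactive partner, was the most transient of the 3. Its normalized counts were 799.9, 765 and 753 in mES Dox and 3496, 3269 and 3034 in EBd2 Dox (4.22-fold, log2 2.08 ± 0.06, adjusted p = 1.17e-19). They were 800.2, 866 and 844 in EBd3 Dox and 261, 229 and 247 in EBd4 Dox, falls of 3.90-fold (log2 -1.96 ± 0.06, adjusted p = 2.68e-17) and 3.40-fold (log2 -1.77 ± 0.06, adjusted p = 4.43e-16). EBd4 Dox thus ended below mES Dox (3.14-fold, adjusted p = 9.52e-18), whereas Dnmt3a and Dnmt3b ended 3.85-fold and 15.5-fold above it.

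With IAA, Dnmt3l fell in mES, where the libraries were at 311, 332 and 382 (2.27-fold below Dox, log2 -1.18 ± 0.06, adjusted p = 2.53e-19). In EBd2 they were at 3033, 3164 and 2856 and overlapped the Dox libraries (log2 -0.11 ± 0.05, adjusted p = 0.113). Without EBd2 Dox 3, which differed from its group, this difference passed (log2 -0.17, adjusted p = 0.00297). In EBd3 they were at 773, 637 and 837 (log2 -0.17 ± 0.07, adjusted p = 0.154), and the difference passed without IAA 3 (log2 -0.25, adjusted p = 0.0137). In EBd4 they were at 405, 346 and 266, all above the Dox libraries, but IAA 3 exceeded the highest Dox library by little (1.36-fold, log2 0.44 ± 0.12, adjusted p = 0.0327). That call was lost without any 1 of 5 of the 6 libraries, with adjusted p of 0.0764 to 0.169.

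The composition of the de novo family shifted with stage. As a share of the summed normalized counts per kb of Dnmt3a, Dnmt3b and Dnmt3l, Dnmt3l held 49.7% ± 1.8 (SD, n = 3) in mES Dox and Dnmt3b 39.4% ± 1.8. Over EBd2, EBd3 and EBd4 Dox, Dnmt3b then held 71.1% ± 1.6, 87.2% ± 0.18 and 91.4% ± 0.54, and Dnmt3l held 18.9%, 4.75% and 2.36%. Dnmt3a moved less, from 10.8% in mES to 6.25% in EBd4 Dox. In mES the family sum was 520.1 ± 5.40 with Dox and 203 ± 15.3 with IAA. The EBd2 sums were 5792 ± 46.7 and 7263 ± 132, those of EBd3 5897 ± 158 and 5667 ± 218, and those of EBd4 3486 ± 199 and 3208 ± 133. In mES the share of Dnmt3b was 31.0% ± 2.0 with IAA and that of Dnmt3l 56.3% ± 2.2. The sum and the shares depend on the length used. With the longest transcript, the mES Dox means per kb were 97 for Dnmt3a, 242 for Dnmt3b and 424 for Dnmt3l. In EBd4 Dox they were 374, 3766 and 135. The sum and the shares are descriptions and were not tested.

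**Figure D3:**
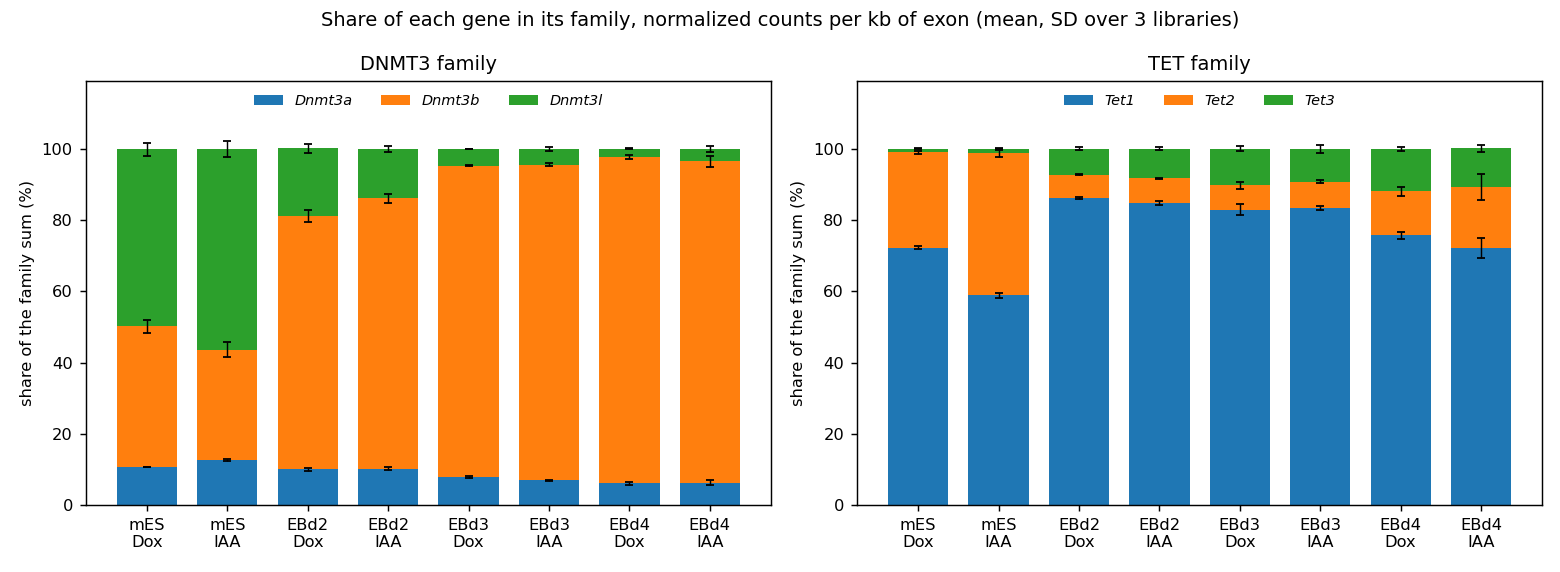
Share of each gene in the summed normalized counts per kb of exon of the DNMT3 family (left) and the TET family (right) in the 8 groups, as stacked bars with SD over 3 libraries at the top of each segment. In Dox libraries Dnmt3b grows from 39.4% in mES to 91.4% in EBd4, and Tet2 holds 26.7% in mES and 6.52% in EBd2.

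The per-kb ratio of Dnmt3b to Dnmt3a showed the same shift within each library. In Dox libraries it was 3.48, 3.63 and 3.78 in mES and 6.63, 7.08 and 7.51 in EBd2. The EBd3 values were 10.7, 10.6 and 11.3, and the EBd4 values 15.5, 15.0 and 13.5. In mES IAA it was 2.44, 2.57 and 2.30, below every Dox library, and in EBd3 IAA it was 12.9, 12.4 and 12.3, above every Dox library. In EBd2 (6.95 to 7.69 with IAA) and EBd4 (12.4 to 15.4) the treatments overlapped. The level of the ratio depends on the length used, and with the longest transcript of each gene the mean in mES IAA was 1.68 in place of 2.44.

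**Figure D4:**
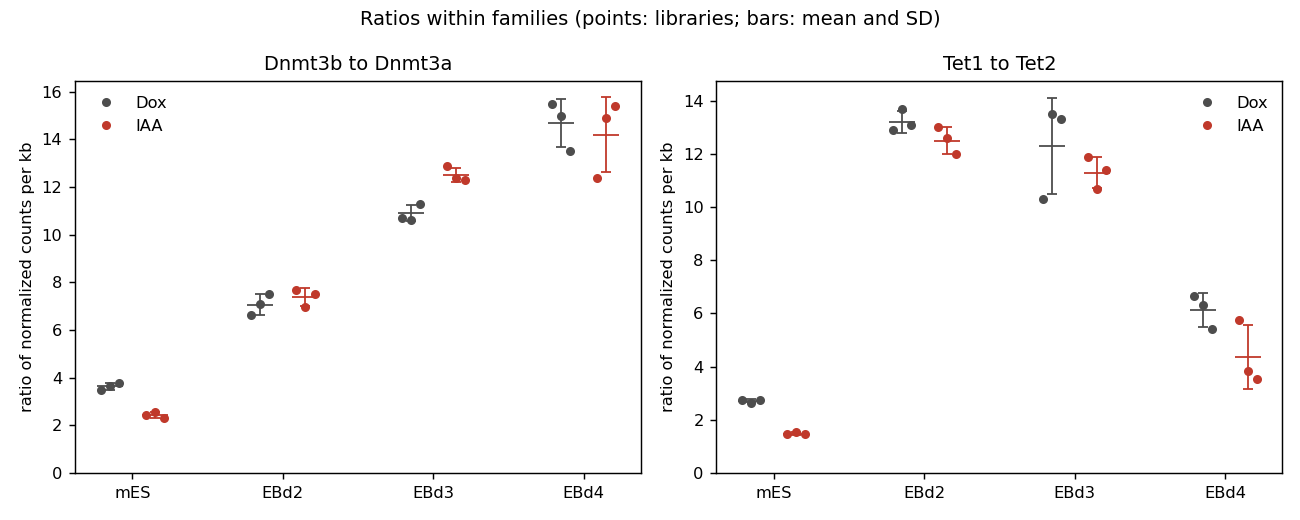
Per-kb ratios of Dnmt3b to Dnmt3a (left) and Tet1 to Tet2 (right) in each library (points) with the mean and SD (bars), on linear axes from 0. Treatments separate in mES in both panels, and the Tet1 to Tet2 ratio rises from 2.71 in mES Dox to 13.2 in EBd2 Dox on average.

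The maintenance genes Dnmt1 and Uhrf1 had similar courses, and in Dox libraries they ended 1.55-fold and 1.79-fold lower in EBd4 than in mES. In Dox libraries, Dnmt1 was at 5659, 5442 and 5626 in mES and 4500.0, 4371 and 4145 in EBd2. The EBd3 values were 3163, 3407 and 3264, and the EBd4 values 3592, 3616 and 3565. The first 2 steps were falls (log2 -0.36 ± 0.04, adjusted p = 5.46e-09, and log2 -0.40 ± 0.04, adjusted p = 2.61e-09) and the last a small rise (log2 0.13 ± 0.04, adjusted p = 0.00702). Uhrf1 was at 6809, 6994 and 7019 in mES Dox and at 5158, 5156 and 4746 in EBd2 Dox, a fall (log2 -0.47 ± 0.04, adjusted p = 4.19e-10). It was at 3803, 4234 and 4176 in EBd3 Dox, a further fall (log2 -0.30 ± 0.04, adjusted p = 1.42e-06). EBd4 Dox was at 3900.4, 3972 and 3739 and overlapped EBd3 (log2 -0.07 ± 0.04, adjusted p = 0.197), and this step passed without EBd3 Dox 1 (log2 -0.12, adjusted p = 0.0305). Dnmt1 held 31.7% to 34.9% of the per-kb sum of the pair in the 8 groups.

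With IAA both were higher in mES, opposite to the de novo genes. Dnmt1 was at 7002, 7061 and 7112 (1.27-fold, log2 0.34 ± 0.02, adjusted p = 1.18e-15) and Uhrf1 at 8253, 8203 and 8308 (1.19-fold, log2 0.25 ± 0.02, adjusted p = 1.12e-12). No IAA library overlapped a Dox library for either gene. In EBd2, Uhrf1 was at 5693, 5666 and 5671, again above every Dox library (log2 0.18 ± 0.04, adjusted p = 0.00321). Dnmt1 was at 4750.4, 4695 and 4696 in EBd2 IAA, above every Dox library (log2 0.12 ± 0.04, adjusted p = 0.0381). That call was lost without a filter on low values (adjusted p = 0.0508) and without any 1 of 5 of the 6 libraries (0.0647 to 0.105).

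In EBd3 neither passed. Dnmt1 was at 3636, 3427 and 3575 with IAA, all above Dox (log2 0.11 ± 0.04, adjusted p = 0.0659) and passed in the joint fit (0.0373) and without IAA 2 (0.0387). Uhrf1 was at 4125, 4183 and 4294 (log2 0.05 ± 0.04, adjusted p = 0.537). In EBd4 both were lower with IAA, and no library overlapped. Dnmt1 was at 3325, 3095 and 3276 (log2 -0.15 ± 0.04, adjusted p = 0.033) and Uhrf1 at 3397, 3450.4 and 3645 (log2 -0.15 ± 0.04, adjusted p = 0.0464). The Dnmt1 call was lost with TMM scaling (adjusted p = 0.133) and DESeq2 (0.0782), and the Uhrf1 call with TMM scaling (0.11), edgeR (0.0576) and DESeq2 (0.102). By limma, Dnmt1 was also lost without Dox 1, Dox 2, Dox 3 or IAA 2 (0.0688 to 0.174). Uhrf1 was lost without Dox 1, Dox 2, IAA 1 or IAA 2 (0.117 to 0.203). Of 14 alternatives, 7 kept the Dnmt1 call and 5 the Uhrf1 call.

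Tet1, the main TET gene of ES cells, fell at every step of the control course. Its normalized counts in Dox libraries were 5811, 6090.3 and 6154 in mES and 4243, 4158 and 4097 in EBd2. They were 2822, 3036 and 2898 in EBd3, then 2045, 2249 and 2157 in EBd4. No step had overlapping libraries, and the log2 changes were -0.53, -0.51 and -0.44, each ± 0.04, with adjusted p of 1.9e-11, 1.5e-10 and 5.53e-09 by limma. With IAA, Tet1 fell in mES to 4619, 4648 and 4668 (1.30-fold, log2 -0.37 ± 0.02, adjusted p = 7.32e-16). The EBd2 IAA libraries were at 4171, 3901 and 3713 (log2 -0.09 ± 0.05, adjusted p = 0.174). Those of EBd3 were at 3013, 3034 and 3132 (log2 0.07 ± 0.04, adjusted p = 0.323), and those of EBd4 at 2135, 1937 and 1839 (log2 -0.13 ± 0.06, adjusted p = 0.195). They overlapped the Dox libraries at each of these stages.

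Tet2 fell steeply as EBs formed. It was at 2308, 2517 and 2450.5 in mES Dox and at 359.7, 332 and 340.2 in EBd2 Dox, a 7.03-fold fall (log2 -2.81 ± 0.08, adjusted p = 3.53e-19). It was at 300.4, 246 and 238 in EBd3 Dox, a further fall (log2 -0.40 ± 0.08, adjusted p = 0.00032), and at 335, 389 and 433 in EBd4 Dox, a rise (log2 0.56 ± 0.08, adjusted p = 1.18e-05). With IAA it rose in mES to 3476, 3281 and 3518, above every Dox library and opposite to Tet1 (1.41-fold, log2 0.50 ± 0.03, adjusted p = 3.19e-16). In EBd2 the IAA libraries were at 349.7, 338 and 337, inside the range of Dox (log2 -0.01 ± 0.07, adjusted p = 0.948, with the sign turned by TMM scaling to 0.02). In EBd3 they were at 277, 309 and 299 (log2 0.18 ± 0.09, adjusted p = 0.244). In EBd4 they were at 406, 550.4 and 571, where IAA 1 lay inside the Dox range, and the difference passed (1.31-fold, log2 0.39 ± 0.12, adjusted p = 0.0491). That call was lost with a constant of 0.5 in place of 1 (adjusted p = 0.0557) and without Dox 1, Dox 2, IAA 2 or IAA 3 (0.164 to 0.259).

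Tet3 was the scarcest of the 8 genes in mES, at 94.2, 105 and 88.3 normalized counts in Dox libraries, and rose 3.95-fold to 374, 369.5 and 398 in EBd2 (log2 1.98 ± 0.08, adjusted p = 1.59e-16). Later steps did not pass, with 408, 409 and 354 in EBd3 (log2 0.03 ± 0.08, adjusted p = 0.758) and 363, 369 and 363 in EBd4 (log2 -0.10 ± 0.08, adjusted p = 0.4). With IAA it did not pass at any stage. In mES the IAA libraries were at 115, 130.4 and 99.4 and overlapped Dox (log2 0.26 ± 0.11, adjusted p = 0.0669), and the difference passed in the joint fit (0.0454), without Dox 2 (0.0445) and without IAA 3 (0.0203). In EBd2 they were at 437, 397 and 420.3 (log2 0.13 ± 0.07, adjusted p = 0.147) and in EBd3 at 406, 322 and 364 (log2 -0.10 ± 0.09, adjusted p = 0.517). In EBd4 they were at 361, 293 and 300.0, all below Dox (log2 -0.20 ± 0.09, adjusted p = 0.171), and the difference passed without IAA 1 (log2 -0.30, adjusted p = 0.0403).

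Because Tet1 and Tet2 moved in opposite directions with IAA in mES, the sum of the TET family moved less than its parts. The summed normalized counts per kb were 539 ± 17.7 (SD, n = 3) in mES Dox and 510.4 ± 6.86 in mES IAA. The direction of this small difference depends on the length used. With the longest transcript, the mES means per kb (Dox and IAA) were 419 and 323 for Tet1 and 264 and 373 for Tet2. The share of Tet1 was 72.3% ± 0.48 against 58.9% ± 0.78 with IAA, and that of Tet2 26.7% ± 0.41 against 39.8% ± 0.96. The per-kb ratio of Tet1 to Tet2 was 2.75, 2.64 and 2.74 in mES Dox and 1.45, 1.55 and 1.45 in mES IAA. Over EBd2, EBd3 and EBd4 Dox the family sum was 313 ± 4.84, 228 ± 6.79 and 184 ± 8.79, and Tet1 held 86.2%, 82.9% and 75.7% of it. The ratio was 12.9, 13.7 and 13.1 in EBd2 Dox and 6.66, 6.31 and 5.43 in EBd4 Dox. The treatments overlapped in the ratio at all 3 EB stages. With the longest transcript as length the mean ratio in mES IAA was 0.867 in place of 1.48, so which of the 2 genes is higher per kb there depends on the length used.

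The IAA effect itself was compared between successive stages with all 24 libraries in 1 limma fit. Between mES and EBd2, 6 of the 8 genes differed in their IAA effect, 4 upward and 2 downward, where 16.3% of all genes did (9.73% upward, 6.61% downward). The difference on the log2 scale was 2.13 ± 0.06 for Dnmt3b (adjusted p = 3.91e-22), 1.49 ± 0.06 for Dnmt3a (5.45e-18) and 1.07 ± 0.14 for Dnmt3l (5.71e-07). For Dnmt3a and Dnmt3b this joined a fall in mES to a rise in EBd2. The differences were 0.29 ± 0.06 for Tet1 (adjusted p = 0.00154), -0.51 ± 0.13 for Tet2 (0.00589) and -0.22 ± 0.05 for Dnmt1 (0.0021). For these 3 the effect in mES was the larger in size. Between EBd2 and EBd3, 2 genes differed, both downward (7.22% of all genes, 2.92% upward and 4.29% downward), Dnmt3a by -0.60 ± 0.06 (adjusted p = 1.65e-07) and Dnmt3b by -0.46 ± 0.06 (1.12e-05). Between EBd3 and EBd4, 3 differed, 1 upward and 2 downward (4.93% of all genes, 2.71% upward and 2.23% downward), Dnmt1 by -0.27 ± 0.05 (adjusted p = 0.00185), Dnmt3l by 0.61 ± 0.14 (0.00774) and Uhrf1 by -0.19 ± 0.05 (0.0345). The Uhrf1 difference was lost under 9 alternatives, with adjusted p of 0.053 to 0.139. Tet3 did not pass in any of the 3 comparisons.

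Other measures moved with IAA beside these genes. In mES the summed normalized counts of 9 pluripotency markers were 58865 to 60884 in Dox and 66501 to 68426 in IAA libraries, with Sox2 and Klf2 lower in the mean and the other 7 higher. The mES sums also did not overlap for 4 neuroectoderm markers (2283 to 2445 and 2616 to 2749.9), 7 primitive endoderm markers (1303 to 1414 and 1744 to 1841) and 6 mesoderm markers (96.9 to 106 and 73.8 to 95.7). They did not overlap for 6 trophoblast markers (1432 to 1441 and 1234 to 1275) or for fibroblast markers (46 to 50.2 and 15.1 to 32.6). Of 8 fibroblast markers 7 were found, and Dcn, Col3a1, Lum and Postn were listed at 0 in all mES libraries. Few genes held most of each of these sums (means, Dox and IAA). They were Lama1 for primitive endoderm (1270 and 1682), where 5 of the 7 genes were below 10 and Gata6 and Dab2 were lower with IAA. They were Eomes for mesoderm (84.7 and 65.1), Thy1 for fibroblasts (42.1 and 19), and Tfap2c (920 and 886) and Krt8 (384 and 290) for trophoblast. For neuroectoderm they were Nes and Tubb3, both higher, while Pax6 was lower (9.67 and 3.61).

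In EBd2 the neuroectoderm sums were 1160.4 to 1202 in Dox and 2282 to 2321 in IAA. Those of 5 formative epiblast markers were 3561 to 4638 and 5219 to 5486. Of these 5, Fgf5, Pou3f1 and Tcf15 were above every Dox library with IAA. Otx2 lay inside the Dox range (means of 684 and 752), and Lef1 was lower with IAA (487 and 291). The EBd2 fibroblast sums were 169 to 215 and 107 to 117, with Dcn at a mean of 43.8 and 10.7 and Col1a2 at 17.6 and 10.5. The EBd2 trophoblast sums were 361 to 409 and 493 to 540.4, where Krt8 and Krt18 were higher with IAA and the other genes lower in the mean. The EBd2 primitive endoderm sums were 242 to 264 and 298 to 328, where Gata4, Lama1 and Dab2 were higher and the other genes lower in the mean. The EBd3 neuroectoderm sums were 2337 to 2426 and 2709 to 2926. Most of that difference lay in Tubb3 (means of 748 and 1115). Nes (1328 and 1393) and Pax6 (249.6 and 252) overlapped between treatments, and Sox1 was lower in the mean (67.7 and 58.1). The mitochondrial share of reads was higher in every IAA library in EBd2 (0.959% to 1.03% against 0.831% to 0.892%) and in EBd3 (1.25% to 1.26% against 1.14% to 1.19%). Read totals did not overlap in EBd4, with 7941180 to 8120480 reads in Dox libraries and 9007143 to 10598075 in IAA libraries. The mesoderm markers summed to 479.7 to 1053 in EBd4 Dox and 109.9 to 711 in IAA. The trophoblast markers summed to 2340.5 to 3000.1 and 3737 to 4674, with Krt18 at a mean of 1514 and 2882, while Cdx2 was at 10.5 and 13.5 and Elf5 was listed at 0 in both groups. Of the pluripotency markers in EBd4, Pou5f1 (5922 and 4853) and Nanog (4788 and 3817) were lower in the mean with IAA, and the other 7 were higher, among them Sox2 (719 and 1087). The part of these measures in the values of the 8 genes was not tested.

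The genes whose pattern was most like each of the 8 were found by Pearson's r over the 8 group means on the log2 scale. The search covered 9424 genes with a symbol and a mean normalized count of at least 100. Genes named Gm plus a number, Rik clones and pseudogenes were left out. These means come from the same libraries and scaling, so the values are a description. Dnmt1 and Uhrf1 had the same gene at the top, Ssna1 (0.994 and 0.995), and r between the pair itself was 0.99. Dnmt3a was most like Etv4 (0.994), Tmem54 (0.993) and Slc5a5 (0.992), and Dnmt3b most like Cacna1b (0.998), Rims4 (0.998) and Prelid3a (0.997). Dnmt3l had less close matches, Prkrip1 (0.982), Ppp2r2d (0.982) and Srm (0.979). Tet1 was most like Uqcrq (0.994), Gps1 (0.987) and Mrpl58 (0.985). Tet2 was most like Dock6 (0.998), Padi2 (0.994) and Tfap2c (0.994), and Tet3 most like Rc3h1 (0.997), Etv1 (0.997) and Sf3b3 (0.996). Among the 8 genes, r was 0.96 for Dnmt3a with Dnmt3b, -0.99 for Dnmt3b with Tet2 and -0.98 for Tet2 with Tet3.

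The other genes of the pathway were followed in 8 lists, whose counts stand against 37.5%, 30.1%, 10.5% and 10.3% of all genes passing with IAA in mES, EBd2, EBd3 and EBd4. In mES, the list of factors that regulate the DNMT3 genes or UHRF1 in pluripotent cells had 2 genes that rose and 4 that fell with IAA of 7 tested (median log2 change -0.19, against -0.01 over all genes tested). Lin28a, an RNA-binding protein of pluripotent cells, fell (log2 -1.33 ± 0.03, adjusted p = 1.12e-27), and Zic2, a zinc finger factor of the formative epiblast, fell by 0.90 ± 0.07 (adjusted p = 5.94e-13). The cofactors of de novo and maintenance methylation had 3 higher and 2 lower of 11, near the share of all genes, with the replication clamp gene Pcna at 0.31 ± 0.02. The list of methyl-CpG readers had 3 higher and 1 lower of 8, also near that share, among them the glycosylase gene Mbd4 at 0.48 ± 0.05.

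The methyl donor cycle, which supplies S-adenosylmethionine, had 7 higher and 1 lower of 10 in mES (median 0.23 against -0.01). Ahcy, which removes the inhibitory product of methyl transfer, was at 0.53 ± 0.02 (adjusted p = 6.57e-20). The list of H3K9 and KRAB silencing factors also had 7 higher and 1 lower of 10 (median 0.18), among them the corepressor Trim28 (0.32 ± 0.02) and the imprint protector Zfp57 (0.40 ± 0.03). TET partners and cofactor supply had 2 higher and 4 lower of 9, with the TET partner Ogt at 0.22 ± 0.03 and Idh3a of the citrate cycle at -0.27 ± 0.03. Cxxc4 of this list was at 0 in all mES libraries and was not tested there. Base excision genes had 2 higher and 5 lower of 13, led by the glycosylase gene Neil3 (-1.09 ± 0.08, adjusted p = 9.66e-14).

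In EBd2 the regulator list had 1 gene higher and 2 lower of 7 with IAA. Of the lower genes, Dppa3 had mean normalized counts of 68.8 in Dox and 19.7 in IAA. The other was near the floor, at 4.66 and 0.964. Dppa3, which keeps UHRF1 from chromatin in the germline and oocyte, fell by 1.76 ± 0.18 on the log2 scale (adjusted p = 3.34e-07), and Zic2 rose by 0.45 ± 0.06 (1.33e-05), opposite to mES. The cofactor list had 3 higher and 2 lower of 11, with the H3K36 methyltransferase gene Nsd1 at -0.37 ± 0.04, and the methyl donor list 4 higher and 2 lower of 10. The H3K9 and KRAB list had 4 higher and 2 lower of 10, with Trim28 at 0.34 ± 0.04 and Zfp57 at -0.53 ± 0.06. TET partners had 4 higher and 2 lower of 10, readers 2 and 2 of 8. Base excision genes had 3 higher and 3 lower of 13, with the stress-response genes Gadd45a (0.89 ± 0.10) and Gadd45g (-1.14 ± 0.16) moving apart.

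In EBd3 the cofactors had 0 of 11, the regulators 1 lower of 7 (Dppa3, -0.77 ± 0.17), the readers 1 lower of 8, the H3K9 and KRAB list 2 higher of 10, TET partners 2 higher and 1 lower of 10, base excision 1 higher and 2 lower of 13, and the methyl donor cycle 1 higher of 10. In EBd4 the cofactors had 1 higher and 4 lower of 11 (Hdac1, -0.24 ± 0.05, and Cdca7l, -0.33 ± 0.07), the regulators 1 higher of 7 (Dppa3, 0.97 ± 0.25) and the readers and the H3K9 and KRAB list 0 of 8 and 0 of 10. TET partners had 1 higher and 1 lower of 10, base excision 3 higher and 1 lower of 13 (Gadd45g, 1.41 ± 0.14, and Gadd45b, 0.92 ± 0.12) and the methyl donor cycle 2 higher and 1 lower of 10. Ogt was higher with IAA at all 4 stages (0.22, 0.27, 0.25 and 0.28, with adjusted p of 5.35e-09, 0.000392, 0.0003 and 0.00435).

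Germline genes known to be kept silent by promoter methylation formed the eighth list. In the Dox libraries 13 rose and 1 fell of 14 between mES and EBd2 (median log2 1.82, against 0.07 over all genes tested). Between EBd2 and EBd3 13 fell (median -1.38 against -0.04), and between EBd3 and EBd4 13 fell (median -1.32 against -0.01). Of all genes, 35.0% rose and 29.1% fell at the first step, 24.4% fell at the second and 17.6% at the third. Tdrd1, a germ cell gene of the piRNA pathway, rose by 4.51 ± 0.16 at the first step (adjusted p = 7.16e-18), and Ddx4, a germ cell RNA helicase gene, by 1.80 ± 0.08 (5.93e-16). With IAA the list had 2 higher and 3 lower of 13 in mES, with Dazl at 1.18 ± 0.07 and Ddx4 at -0.52 ± 0.10. In EBd2 it had 9 lower and 0 higher of 14 (median -0.39 against -0.04), led by Taf7l (-1.56 ± 0.10, adjusted p = 6.55e-10) and the meiotic gene Hormad1 (-1.28 ± 0.14, adjusted p = 4.83e-07). In EBd3 it had 3 lower of 14, with Ddx4 at -0.77 ± 0.09, and in EBd4 1 higher of 14, Sycp3 (0.67 ± 0.13). DNA methylation itself was not among the measurements analysed here.

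**Figure D5:**
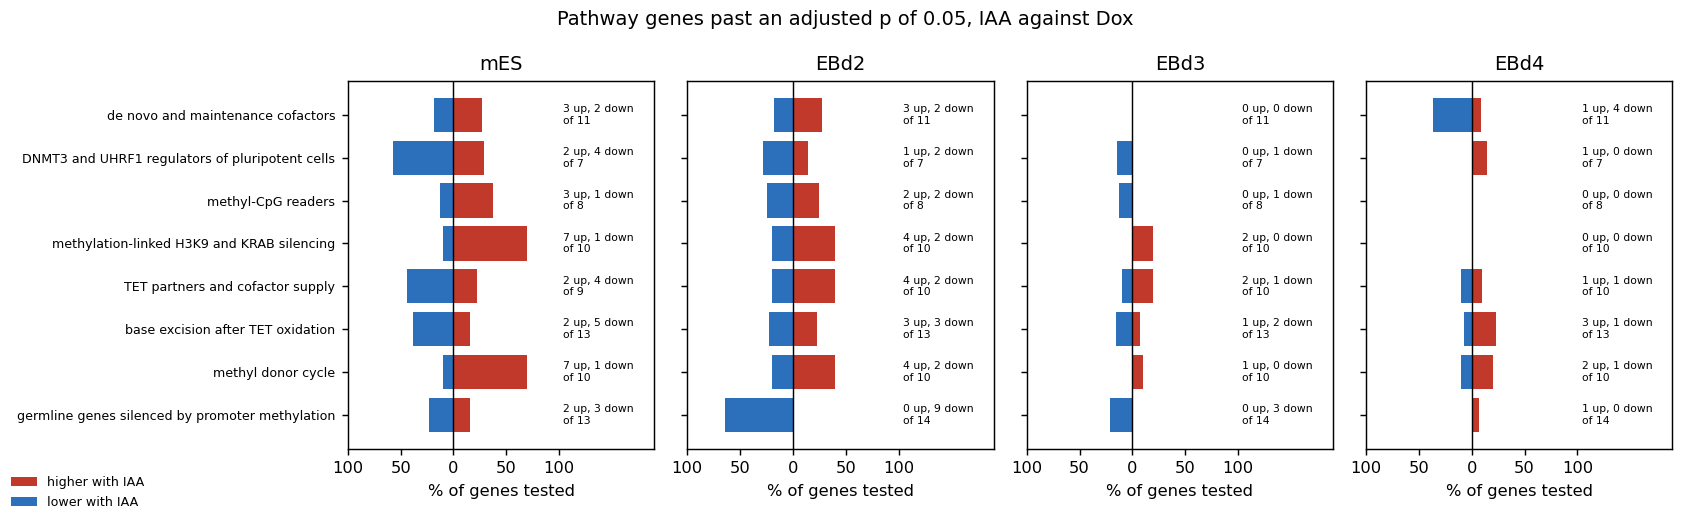
Percent of the tested genes of each of the 8 pathway lists that passed an adjusted p of 0.05 in limma, IAA against Dox, to the right for higher and to the left for lower with IAA, by stage. The germline list has 9 of 14 genes lower in EBd2, and the methyl donor and the H3K9 and KRAB lists have 7 of 10 higher in mES.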

How the data were processed

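RNA of 24 samples in 8 groups of 3 was measured. Per the submitters' processing notes, the authors aligned reads to mm10 with STAR 2.5.3a, counted with featureCounts 1.5.2 and used DESeq2. The DESeq2 version, the annotation version and the strand setting are not given in the sources used here. The deposited signal values are counts that the authors divided by 1 size factor per library. Multiplied back, 100% of positive values were whole reads within 1e-06, and the factors were joint over the 24 libraries. The authors also deposited log2 fold changes with SE and adjusted p-values from DESeq2, per the file headers, printed where named.

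limma 3.58.1 (trend, R 4.3.3) was fitted on log2(normalized count + 1). Genes whose mean over the libraries of a fit fell below 1 were dropped, and p-values were adjusted over all remaining genes by Benjamini and Hochberg, with 0.05 as threshold. IAA against Dox used the 6 libraries of a stage, the control steps the 12 Dox libraries, and differences of the IAA effect all 24. Fold changes on this scale understate those of low genes. Alternatives were TMM scaling, constants of 0.5 and 5, no filter, a replicate block, edgeR 4.0.16, DESeq2 1.42.0, a joint fit and leaving out each library. Per-kb values used the union of exons of GENCODE M21, which matched 35652 of 35742 genes, while 14339 have no symbol in the tables. The test was tried on simulated data in which all libraries of a fit shared the spread of a gene. That simulation held no deviating libraries such as EBd2 Dox 3 or EBd4 IAA 1, so it does not cover them. The genes and lists were chosen with earlier results of these data known, and support nothing independently. Dnmt3c of the cofactor list was not found by symbol. Named list genes are up to 2 per list and comparison with the smallest adjusted p past 0.05, and for each of the 8 genes the 3 of most similar pattern. Brd2 and the marker genes were added as checks.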

Additional observations from a re-analysis of the deposited data

Results flagged for a closer look

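For 11 values, the IAA effect differed between successive stages by the test of the difference itself (limma, 24 libraries, adjusted p below 0.05). From mES to EBd2 the log2 effect changed by 1.49 for Dnmt3a, 2.13 for Dnmt3b, 1.07 for Dnmt3l, 0.29 for Tet1, -0.51 for Tet2 and -0.22 for Dnmt1. From EBd2 to EBd3 it changed by -0.60 for Dnmt3a and -0.46 for Dnmt3b. From EBd3 to EBd4 it changed by -0.27 for Dnmt1, 0.61 for Dnmt3l and -0.19 for Uhrf1. Successive differences share the libraries of the stage between them, so they are not independent of each other.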

How the results depend on the processing

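Of the single values of the 8 genes under each alternative, 1254 kept their direction and side of the threshold, 41 lost and 15 gained a call, and 10 turned in sign. None of the values that turned in sign was a call. With IAA in EBd2, Tet2 (-0.01) was 0.02 with TMM scaling, 0.02 with edgeR, 0.01 with DESeq2, and -0.03 to 0.03 without 1 library (0.03 without Dox 1, 0.00 without IAA 3). Uhrf1 in EBd3 (0.05) was -0.00 to 0.08 without 1 library (-0.00 without Dox 1). The difference EBd3 minus EBd2 of Dnmt1 (-0.01) was -0.03 to 0.03 without 1 library (0.03 without EBd2 Dox 3, 0.02 without EBd3 Dox 2 or EBd3 IAA 2), and that of Dnmt3l (-0.05) was -0.14 to 0.06 (0.06 without EBd3 IAA 2). With IAA in EBd3, 2245 genes passed, 1295 with DESeq2 and 1202 to 2613 without 1 library (1202 without Dox 2), and 1 of the 8 genes passed, 2 in the joint fit and 1 to 2 without 1 library. In EBd4, 2173 genes passed, 3425 in the joint fit and 776 to 2039 without 1 library (776, 837 and 887 without Dox 1, Dox 2 and IAA 2), and 4 of the 8 genes passed, 2 with TMM scaling, 2 with DESeq2 and 0 to 3 without 1 library. For EBd4 minus EBd3, 1086 genes passed, 721 without the filter and 552 to 1358 without 1 library. The cause was not tested.

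Same-numbered samples did not deviate together (r of -0.18 to 0.094 over 12 pairs, none above 0.1, and 6 of 12 closest to their own number), so the replicate numbers were not taken as a pairing. With the replicate number as a block, 1365 genes and 2 of the 8 passed in EBd4, 8 of the 8 in mES and 5 in EBd2. Dnmt1 (adjusted p = 0.0775) and Uhrf1 (0.104) in EBd4 were lost, and Tet3 in mES (0.0489) and Dnmt3l in EBd2 (0.0468) were gained.

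With the longest transcript as length, the ratio of Dnmt3b to Dnmt3a (Dox, IAA) was 2.5 and 1.68 in mES. From EBd2 to EBd4 it was 4.87 and 5.08, 7.48 and 8.62, and 10.1 and 9.77. That of Tet1 to Tet2 was 1.59 and 0.867, 7.74 and 7.34, 7.23 and 6.63, and 3.59 and 2.56. Depth limits Tet3 in mES most, at 95 to 148 reads per library.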
